A study of Homo sapiens with 6 samples.

Results

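Narrow H3K27ac peaks at the ends of protein-coding genes were examined in human neurons. The members were chosen by width and position alone, as the peaks under 2000 bp wide whose interval lay within 1 kb of either end of a protein-coding gene on chromosomes 1 to 22 and X. There were 17828 of them among 78639 H3K27ac peaks on these chromosomes, which is 22.7% of the list. Width and position in the H3K27ac list thus define the members, and widths, fold enrichments and positions are given as descriptions without a test.

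The neurons were differentiated from neural progenitor cells with a published BrainPhys medium protocol. They derive from KOLF2.1J, a widely used reference line of human induced pluripotent stem cells, and every sample shared this line and treatment. Chromatin immunoprecipitation followed by sequencing was performed with an antibody against H3K27ac (2 libraries), with an antibody against CTCF (2 libraries) and without one (2 input libraries). A single line is the only genetic background, and the labels do not say whether the 2 libraries of an antibody came from separate cultures. Each antibody has 1 peak list for both of its libraries together, so there is no spread between replicates, the read depth behind a peak is unknown, and no value can be given per library.

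H3K27ac is histone H3 acetylated at lysine 27, a mark laid down by the acetyltransferases CBP and p300 on nucleosomes beside active promoters and enhancers. At an active promoter the start site itself is kept free of nucleosomes so that the transcription machinery can bind, and the marked nucleosomes stand on both sides of it. Genes expressed in most cell types tend to start in CpG islands, stretches rich in the CG dinucleotide, whereas genes of cell identity more often carry wide acetylated domains. CTCF is a zinc finger protein that binds DNA at loop anchors and insulators and also at many promoters.

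Sequence before the start is shown for some of the promoters with the strongest members, because H3K27ac summits turned out to be sparse just before the start. Each line gives the 200 bases before the start in the RefSeq table of GRCh38.p14, read in the gene's own direction, and letters in capitals are matches to any of the 10 short motifs described further on. The first promoter belongs to UPF2, a factor of nonsense-mediated mRNA decay (chr10:12043171-12043370, minus strand). The next belong to HDAC4, a class IIa histone deacetylase (chr2:239401650-239401849, minus strand), and to CEP76, a centrosomal protein (chr18:12702778-12702977, minus strand).
UPF2: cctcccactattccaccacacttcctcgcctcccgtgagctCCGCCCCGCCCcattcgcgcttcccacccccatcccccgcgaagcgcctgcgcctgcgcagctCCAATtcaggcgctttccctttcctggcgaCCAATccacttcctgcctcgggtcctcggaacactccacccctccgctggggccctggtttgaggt
HDAC4: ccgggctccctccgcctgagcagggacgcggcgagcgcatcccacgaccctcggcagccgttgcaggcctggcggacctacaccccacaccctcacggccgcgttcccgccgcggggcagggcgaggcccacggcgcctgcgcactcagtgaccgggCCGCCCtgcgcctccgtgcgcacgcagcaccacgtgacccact
CEP76: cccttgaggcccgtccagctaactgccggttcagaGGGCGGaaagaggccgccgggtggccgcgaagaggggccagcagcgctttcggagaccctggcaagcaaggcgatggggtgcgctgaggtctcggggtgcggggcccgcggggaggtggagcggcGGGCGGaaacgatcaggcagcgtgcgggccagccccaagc

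Another set shows starts that face away from a second gene and share a single member with it. CYB561A3, a lysosomal cytochrome b561 (chr11:61362284-61362483, minus strand), and TMEM138, a ciliary membrane protein (chr11:61362174-61362373, plus strand), start 91 bp apart, so their printed stretches overlap on opposite strands. FBXO8, an F-box protein (chr4:174283668-174283867, minus strand), starts 39 bp from CEP44, another centrosomal protein.
CYB561A3: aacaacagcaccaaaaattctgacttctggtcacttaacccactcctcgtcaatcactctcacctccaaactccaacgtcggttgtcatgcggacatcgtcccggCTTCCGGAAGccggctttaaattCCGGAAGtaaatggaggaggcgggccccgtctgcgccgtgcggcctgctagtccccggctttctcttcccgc
TMEM138: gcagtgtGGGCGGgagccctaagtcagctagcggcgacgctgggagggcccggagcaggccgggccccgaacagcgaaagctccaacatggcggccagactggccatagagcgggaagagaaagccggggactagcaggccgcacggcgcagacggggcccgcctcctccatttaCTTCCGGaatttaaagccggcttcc
FBXO8: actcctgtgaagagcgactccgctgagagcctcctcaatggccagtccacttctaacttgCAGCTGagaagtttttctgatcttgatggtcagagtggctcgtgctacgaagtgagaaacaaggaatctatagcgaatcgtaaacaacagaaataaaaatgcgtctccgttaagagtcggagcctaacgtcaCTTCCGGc
GC boxes (GGGCGG or its complement CCGCCC) stand in the printed stretches of UPF2, HDAC4, CEP76 and TMEM138, and ETS cores (CCGGAAG or CTTCCGG) in those of CYB561A3, TMEM138 and FBXO8. UPF2 also holds 2 CCAAT boxes. None of these stretches holds a TATAAA. Among strong members whose promoters are not printed, the same stretch of NDC1 holds a GC box, and that of SS18 holds a CCAAT box but no GC box.

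Strand could be read from the RefSeq promoter table for 15811 of 19970 protein-coding genes. By strand, 13487 members lay within 1 kb of a 5′ end and 1273 lay near 3′ ends only. The remaining 3068 lay near an end of a gene whose strand was not used here, without a known 5′ end. Of the 14760 members with a known end, 91.4% were at a 5′ end (95% Wilson interval 90.9 to 91.8%, counting error only, as for all intervals here). Among the 5′ members, 754 also lay within 1 kb of a 3′ end. Per 100 protein-coding genes a chromosome held between 68.6 members (chromosome 21) and 105 members (chromosome 22), with a median of 90.1.

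The 5′ members were wider and more enriched than the 3′ members. Fold enrichment here is the authors' peak value, judged from the list's layout and values to be pull-down signal over background at the summit. Its median was 9.12 at 5′ ends (quartiles 5.06 and 17.1) and 4.20 at 3′ ends (quartiles 3.37 and 5.75), a ratio of 2.17, and the 5′ median was the higher on 22 of the 22 chromosomes with strand. Median width was 565 bp at 5′ ends and 315 bp at 3′ ends. A q-value above 0.05 was attached to 2.47% of 5′ members and to 9.11% of 3′ members. Members near ends of unknown strand lay between them, with a median fold enrichment of 7.38 and a median width of 509 bp. In members of 300 to 600 bp the ratio of median fold enrichment was 1.64, so part of the difference went with width.

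In level, the 3′ members resembled narrow peaks away from gene ends. The 34627 narrow peaks inside genes had a median fold enrichment of 4.19 and a median width of 299 bp. The 22690 narrow peaks outside genes had a median fold enrichment of 4.34 and a median width of 305 bp. Peaks of 2 kb or more at gene ends, 1498 in all, had a median fold enrichment of 27.6, and the strongest members reached the same range. The highest value among the members was 96.1.

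**Figure D1:**
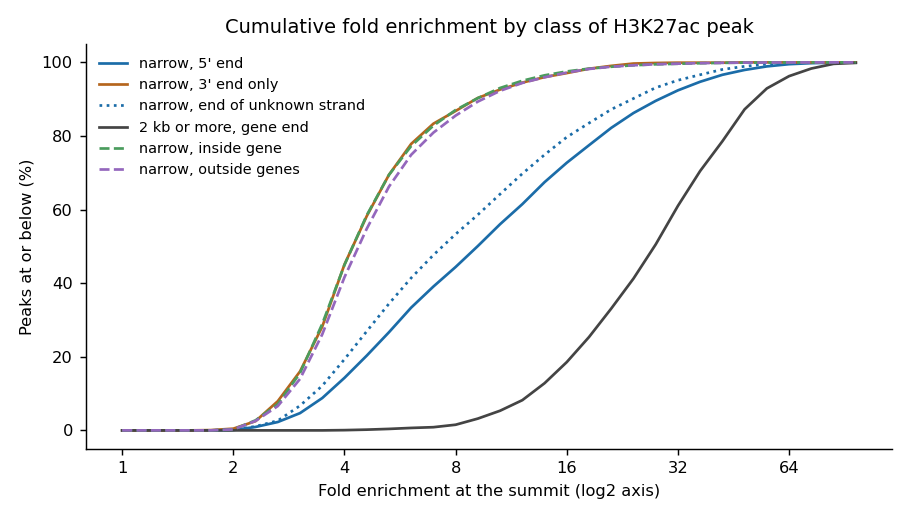
Cumulative share of H3K27ac peaks (vertical axis, percent) at or below each fold enrichment (horizontal axis, log2 scale), with a line for each class of peak. The line for narrow 3′ members runs with the lines for narrow peaks inside and outside genes (medians 4.20, 4.19 and 4.34), and the line for narrow 5′ members (median 9.12) lies to their right, short of the peaks of 2 kb or more (median 27.6).

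The limits of the rule did not mark a step in these values. Gene-end peaks of 1800 bp to under 2000 bp (473 peaks) had a median fold enrichment of 25.01, and those of 2000 bp to under 2200 bp (364 peaks) had 25.5. The widest members were at SMDT1, an essential subunit of the mitochondrial calcium uniporter (1999 bp, fold enrichment 37.7), and at TMEM165, a Golgi ion transporter (1998 bp, fold enrichment 30.6). The narrowest peaks beyond the limit were at NRG3, a neuregulin (2000 bp, fold enrichment 10.6), and at VGLL3, a transcription cofactor (2000 bp, fold enrichment 21.9). Narrow peaks 801 to 1000 bp from the nearest end (937 peaks) had a median fold enrichment of 4.17, and those 1001 to 1200 bp away (825 peaks) had 4.15. Members at the 1000 bp limit were near RAP2B (fold enrichment 18.7) and SAE1 (fold enrichment 5.76), and peaks just beyond it, at 1001 bp, were near ASB6 (fold enrichment 3.76) and ARL16 (fold enrichment 3.59).

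The 8 strongest 5′ members lay at genes of varied function. The member of UPF2 (chr10:12041829-12043268) had a fold enrichment of 96.1, with its summit 115 bp inside the gene. The member of FLCN, which encodes the tumour suppressor folliculin (chr17:17236458-17237980), had 92.9. It was followed by the members of HDAC4 (chr2:239401290-239402285, fold enrichment 90.9) and CEP76 (chr18:12701870-12703610, fold enrichment 90.8). NDC1, a membrane protein of the nuclear pore, had a member of only 799 bp with a fold enrichment of 88.1 (chr1:53837862-53838660). The shared member of CYB561A3 and TMEM138 (chr11:61361177-61362938) had 86.9, that of SS18, a subunit of the BAF chromatin remodeler (chr18:26089483-26091457), had 86.6, and that of CEP44 and FBXO8 (chr4:174283266-174284391) had 85.6. All 8 of these intervals covered the start of at least 1 gene, and 4 of them overlapped a CTCF peak (HDAC4, NDC1, CYB561A3 with TMEM138, and SS18).

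The weakest members were close to the floor of the list. A member 991 bp from the 3′ end of CACHD1 had a fold enrichment of 1.72. A member near the starts of CIRSR and SCRN3 (chr2:174395827-174396007) had 1.76, and one 400 bp from the 3′ end of DLX2, a homeobox factor of inhibitory neurons, had 1.80. All 3 had a −log10 q below that of a q-value of 0.05, at 0.241, 0.511 and 0.290.

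The summits of 5′ members kept clear of the start itself. A member and a 5′ end within 1 kb of each other made 15250 pairs, since a member can lie near several starts. Of these summits, 3750 (24.6%) fell 100 to 200 bp downstream of the start, the fullest of the 20 bins of 100 bp, and it was the fullest on 22 of the 22 chromosomes with strand. In the 100 bp just before the start there were 140 (0.918%), and the emptiest 20 bp, from 40 to 20 bp before the start, held 16. The fullest 20 bp, from 140 to 160 bp downstream, held 1012. Upstream the summits were more spread out, with 1741 (11.4%) from 300 to 200 bp before the start and 1428 (9.36%) from 400 to 300 bp before it. Their fullest 20 bp, from 260 to 240 bp before the start, held 382.

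**Figure D2:**
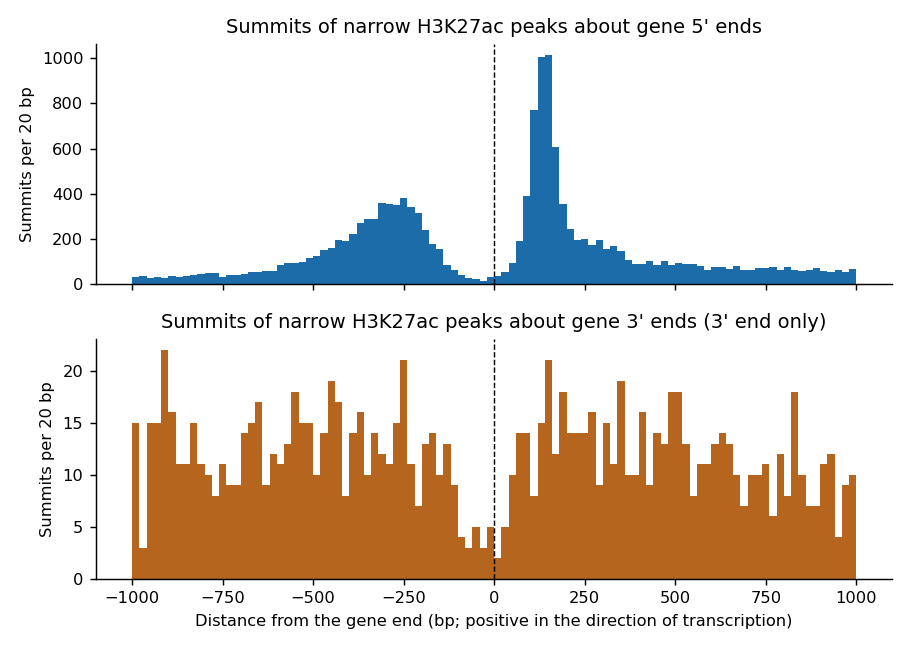
Number of member summits per 20 bp (vertical axes) against distance from the gene end in bp, positive in the direction of transcription, for 5′ ends (top) and for members at 3′ ends only (bottom, on a smaller vertical scale). The top panel shows a sharp maximum 140 to 160 bp after the start (1012 summits), a broader one 260 to 240 bp before it (382 summits) and a trough between them, and the bottom panel shows a low at the 3′ end without such maxima.

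The same placing was seen on both strands. The share 100 to 200 bp downstream was 24.9% of 7812 pairs on the plus strand and 24.3% of 7438 pairs on the minus strand. It differed with the strength of the member. In the lowest quartile of pairs by fold enrichment (up to 5.19) it was 9.68% (95% Wilson interval 8.78 to 10.7%), and in the highest quartile (from 17.5) it was 37.2% (interval 35.6 to 38.7%), with 20.7% and 30.8% in the quartiles between. The share in the 100 bp before the start stayed between 0.682% and 1.18% in all 4 quartiles. Members with a summit 100 to 200 bp downstream had a median fold enrichment of 13.7, and the 723 with a summit 200 to 100 bp before the start had 14.6. Those with a summit 900 to 1000 bp downstream had 5.30, and those 1000 to 900 bp before the start had 4.34.

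Of the 15250 pairs, the interval covered the start in 34.8%, lay wholly upstream in 33.9% and lay wholly downstream in 31.4%. Members that covered the start were the widest (median 1078 bp) and the most enriched (median 17.4). Those wholly upstream had a median width of 422 bp and a median fold enrichment of 7.15, and those wholly downstream had 431 bp and 6.41.

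Many starts had a member on each side and none across. Such flanked starts numbered 2066, which is 23.3% of the 8872 genes with a 5′ member (95% Wilson interval 22.4 to 24.2%). The gap between the 2 flanking members had a median of 200 bp (quartiles 140 and 284 bp). Among genes with a member, 3611 had 1 at the 5′ end, 4253 had 2, 909 had 3 and 99 had 4 or more. At the 1646 flanked starts without a divergent partner, the downstream member was the more enriched in 57.2% (interval 54.8 to 59.5%), with medians of 8.52 downstream and 7.05 upstream. At the 420 flanked starts with a divergent partner, described next, this was turned around: the downstream member was the more enriched in 36.7% (interval 32.2 to 41.4%), with medians of 8.44 downstream and 10.8 upstream. Over all 2066 flanked starts the share was 53.0% (interval 50.8 to 55.1%). Starts of a divergent pair are not independent, since one gene's downstream side can be the other's upstream side. How far this layout sets the share of 36.7% was not tested.

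Gene pairs that start back to back were mostly marked by members. Divergent starts were on opposite strands and at most 1000 bp apart, with gene intervals that did not overlap at the starts. They formed 801 pairs with a median distance of 173 bp, and in 670 of them a single member lay within 1 kb of both starts. Of the 1592 genes in these pairs, 83.9% had a member at the 5′ end (95% Wilson interval 82.0 to 85.6%), beside 53.0% of the other 14219 genes (interval 52.2 to 53.8%). Over all genes with a strand this share was 56.1%. No H3K27ac peak of any width lay within 1 kb of the start in 6.47% of divergent genes and in 40.7% of the others. The strongest member of a divergent gene had a median fold enrichment of 17.2, against 13.5 elsewhere. Partners whose strand was not used here are counted among the other genes. Genes on opposite strands that overlap at their starts, such as MUTYH and TOE1, are counted there too unless paired with another gene. Because paired starts lie at most 1000 bp apart, a peak near one start often counts for the partner too. A divergent gene can thus have a member through its partner's start, and the interval treats paired genes as independent. How much of these differences comes from this layout was not tested.

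Besides the pairs shown above, the strongest shared members lay between HADHA and HADHB, the subunits of the mitochondrial trifunctional protein of fatty acid oxidation (chr2:26243818-26245726, fold enrichment 85.2), and between PDAP1 and BUD31, the latter a spliceosome protein (chr7:99407889-99409724, fold enrichment 81.3). Of the 420 divergent starts that were flanked, 222 had a partner start that was flanked too, and there the downstream member was the stronger in 110, a share that the pairing itself holds near even, since one gene's downstream side is the other's upstream side. Of the other 198 it was the stronger in 44.

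The members at 3′ ends only showed neither the level nor the order of the 5′ members. Their summits were spread over the 1 kb on either side, with between 45 and 74 of 1404 pairs in the other bins of 100 bp and 20 (1.42%) in the 100 bp before the end. The strongest lay 791 bp from the end of IGBP1C (chr17:58658598-58659633, fold enrichment 44.2). The next lay beside RASIP1, a Ras-interacting protein of blood vessel cells (chr19:48720739-48721535, fold enrichment 30.6), over the facing ends of DUOX1 and SHF (chr15:45166174-45167979, fold enrichment 25.9) and near AFAP1L1 (chr5:149344462-149346082, fold enrichment 25.7). Of the 1273 members, 119 lay within 1 kb of another start in the promoter table or of an end of a long non-coding RNA gene, the one near AFAP1L1 among them. Genes with a 3′ member more often had an H3K27ac peak at their 5′ end too, 772 of 975 (79.2%) beside 61.7% of the other 14836 genes.

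CTCF was not used to choose the members. Of all H3K27ac peaks 16.2% overlapped a CTCF peak by at least 1 bp, and of the members 31.5% did (5611 members, 95% Wilson interval 30.8 to 32.2%). The members' share depended on what counted as overlap: it was 17.4% for a CTCF summit inside the member, 16.2% with 50% of the CTCF peak covered, 19.5% without CTCF peaks of 800 bp and 14.9% for the upper 50% of CTCF peaks by signal. These stricter counts were made for the members only and cannot be set against the share of all H3K27ac peaks. All comparisons between classes of peak use overlap by at least 1 bp. The share was 32.8% at 5′ ends (interval 32 to 33.6%) and 18.3% at 3′ ends only (interval 16.3 to 20.5%), and it was the higher at 5′ ends on 21 of the 22 chromosomes with strand, the exception being chromosome 19. Narrow peaks inside genes had 9.37% (interval 9.07 to 9.68%) and narrow peaks outside genes had 10.5% (interval 10.1 to 10.9%). Peaks of 2 kb or more at gene ends had 60.01% (interval 57.5 to 62.5%). Peaks are not replicates of a condition, so no p-value is given for these differences.

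A wider or stronger peak met CTCF more often, so the shares were also read at similar width and strength. Among peaks with a fold enrichment under 4, CTCF overlapped 22.3% of 5′ members (95% Wilson interval 20.5 to 24.2%), 13.4% of 3′ members (10.9 to 16.4%) and 6.23% of narrow peaks inside genes (5.86 to 6.62%). From 4 to 8 the shares were 26.9%, 19.8% and 9.63%. From 8 to 16 the intervals of 5′ members (36.6%, 35.1 to 38.2%) and 3′ members (28.2%, 21.2 to 36.5%) overlapped, and narrow peaks inside genes had 17.1%. From 16 to 32 the shares were 39.6% at 5′ ends, 38.9% of the 36 members at 3′ ends and 27.2% inside genes. Intervals of 5′ and 3′ members were thus apart below a fold enrichment of 8 and overlapped from 8 upwards. The 3′ members were few there, with 131 from 8 to 16, 36 from 16 to 32 and 1 above 32. Overlap in these bins therefore cannot show that the shares were alike. Above 32 the intervals of 5′ members and peaks inside genes overlapped too, with 43.8% of 1025 5′ members (interval 40.8 to 46.9%) and 40.3% of 129 narrow peaks inside genes (interval 32.2 to 48.9%). Among peaks under 300 bp, 21.1% of 5′ members, 14.8% of 3′ members and 6.43% of peaks inside genes overlapped CTCF, and among peaks of 1000 bp or more 46.4%, 24.2% and 18.8% did. In this wider bin the intervals of 5′ members (44.7 to 48.1%) and 3′ members (17.4 to 32.6%) were apart.

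**Figure D3:**
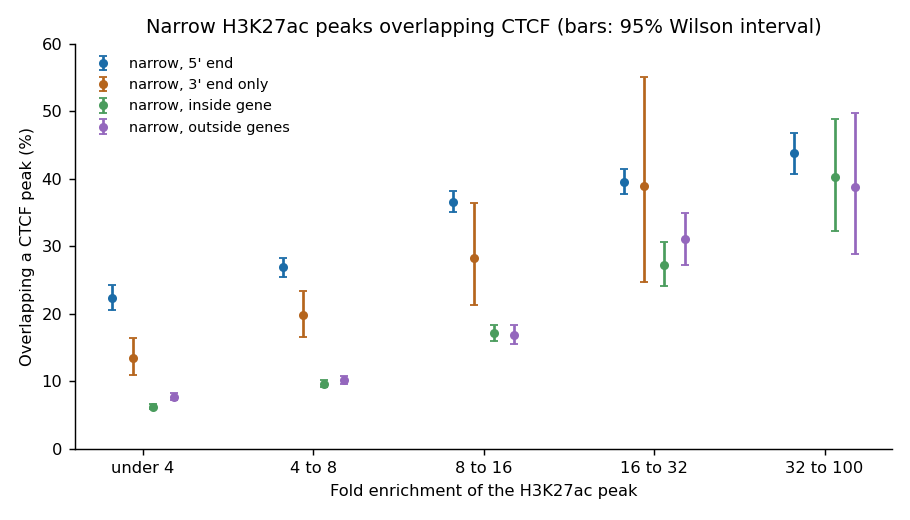
Share of narrow H3K27ac peaks overlapping a CTCF peak (vertical axis, percent, bars are 95% Wilson intervals) in bins of fold enrichment (horizontal axis), for members at 5′ ends, members at 3′ ends only, and narrow peaks inside and outside genes; points resting on fewer than 20 peaks are left out. Below a fold enrichment of 8 the 5′ members stand highest (22.3% and 26.9%), and above 32 the intervals of the classes shown overlap.

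The CTCF peaks met at the 2 kinds of end differed. The 4145 CTCF peaks that overlapped 5′ members had a median CTCF signal value of 65.7, and the 218 that overlapped 3′ members had 161, on the authors' scale for that list. All CTCF peaks together had a median of 91.0. A recurrent width of 800 bp, which in the whole CTCF list had a median signal value of 35.9 against 145 at other widths, was found in 42.0% of the CTCF peaks at 5′ members (95% Wilson interval 40.5 to 43.5%), in 25.2% at 3′ members (19.9 to 31.4%) and in 33.4% of the whole CTCF list. It was not particular to 5′ members. The share was 39.4% at narrow peaks inside genes (37.7 to 41.2%), 32.1% at narrow peaks outside genes and 46.6% at gene-end peaks of 2 kb or more. Median CTCF signal values there were 81.7, 117 and 55.9. The strongest CTCF peak at a 5′ member had a signal value of 463, at LRRC59, a ribosome-binding protein of the endoplasmic reticulum (member at chr17:50396686-50397490, fold enrichment 11.1). The strongest at a 3′ member had 417, beside SLC4A3, an anion exchanger (member at chr2:219642149-219642420, fold enrichment 4.19).

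CTCF summits, unlike H3K27ac summits, were common just before the start. Among the CTCF peaks that overlapped a 5′ member, 2429 pairs of a summit and a start within 1 kb involved peaks of other widths than 800 bp, and in 30.3% of them the CTCF summit lay in the 200 bp before the start (95% Wilson interval 28.5 to 32.2%), against 13.6% in the 200 bp after it. Among the 1774 pairs with CTCF peaks of 800 bp this was turned around, with 15.1% before (interval 13.5 to 16.8%) and 21.5% after (interval 19.6 to 23.4%). Counted over genes, a CTCF summit stood in the 200 bp before the start in 11.8% of the 8872 genes with a member (interval 11.1 to 12.5%) and in 3.14% of the 5888 genes with no peak (interval 2.73 to 3.62%), beside 8.64% of all genes with a strand. Genes with a peak of 2 kb or more had 11.8% too, and genes with both a member and a wider peak count in both groups. At 277 of the 2066 flanked starts (13.4%) a CTCF summit fell into the gap between the members. This share has no counterpart at starts without such a gap. In the 200 bp before the start, a CTCF summit stood at 12.7% of flanked starts (interval 11.3 to 14.2%). At starts covered by a member it was 11.7% (interval 10.9 to 12.6%), so these intervals overlapped.

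The kind of peak at the start was then read by gene function, over 18 gene lists. Over all 15811 genes with a strand, 56.1% had a member at the 5′ end, 8.49% had a peak of 2 kb or more there, 1.85% had both and 37.2% had neither. The lists count only genes with a strand, are small, and were given no test. In a bulk culture, fewer cells carrying a peak and less acetylation per cell cannot be told apart. At the 5′ end of a gene with a member, the strongest member had a median fold enrichment of 14.1.

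Genes of the basic cell machinery nearly all carried members. In the large subunit of the mitochondrial ribosome 14 of 14 genes had one and none had a peak of 2 kb or more, led by MRPL20 (fold enrichment 24.8), MRPL11 (23.7) and MRPL17 (21.5), with a median fold enrichment of 17.4. In Mediator, the coactivator that links transcription factors to RNA polymerase II, it was again 14 of 14 with none wider, led by MED16 (fold enrichment 49.8), MED1 (32.5) and MED7 (27.6). In the proteasome core 9 of 10 had a member and none a wider peak, led by PSMA4 (fold enrichment 39.6), PSMB5 (31.3) and PSMA5 (22.7), and PSMA6 had no peak within 1 kb. Among these leading genes the summit of the strongest member stood 150 bp after the start of MRPL20, 146 bp after that of MED1 and 153 bp after that of PSMA5, but upstream of MRPL11, at -113 bp.

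The tRNA synthetases, which charge transfer RNAs with amino acids, were divided between the 2 widths. Of 16 genes, 13 had a member, led by AARS1 (fold enrichment 64.6), FARSB (46.4) and CARS1 (42.9), and 5 had a peak of 2 kb or more (GARS1, IARS1, SARS1, TARS1 and WARS1), 2 of which also had a member. Among 8 core subunits of RNA polymerase II, 7 had a member, led by POLR2L (fold enrichment 42.1), POLR2D (20.5) and POLR2B (20.02). The gene of the largest subunit, POLR2A, had a peak of 2 kb or more, and POLR2H had one beside a member.

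In the repair of DNA double-strand breaks 13 of 15 genes had a member, and 9 of the 15 start back to back with another gene, beside 10.1% of all genes with a strand. LIG4, the ligase of end joining, led with a fold enrichment of 30.8, followed by its partner XRCC4 (25.4) and by BRCA2 (25.3), a factor of homologous recombination. BRCA1 had a peak of 2822 bp instead, and MRE11 had none. In intraflagellar transport, the traffic along cilia, 11 of 13 genes had a member, led by IFT74 (fold enrichment 42.4), IFT81 (40.6) and IFT88 (39.0). IFT46 had no peak, and IFT80 had a peak of 2346 bp.

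**Figure D4:**
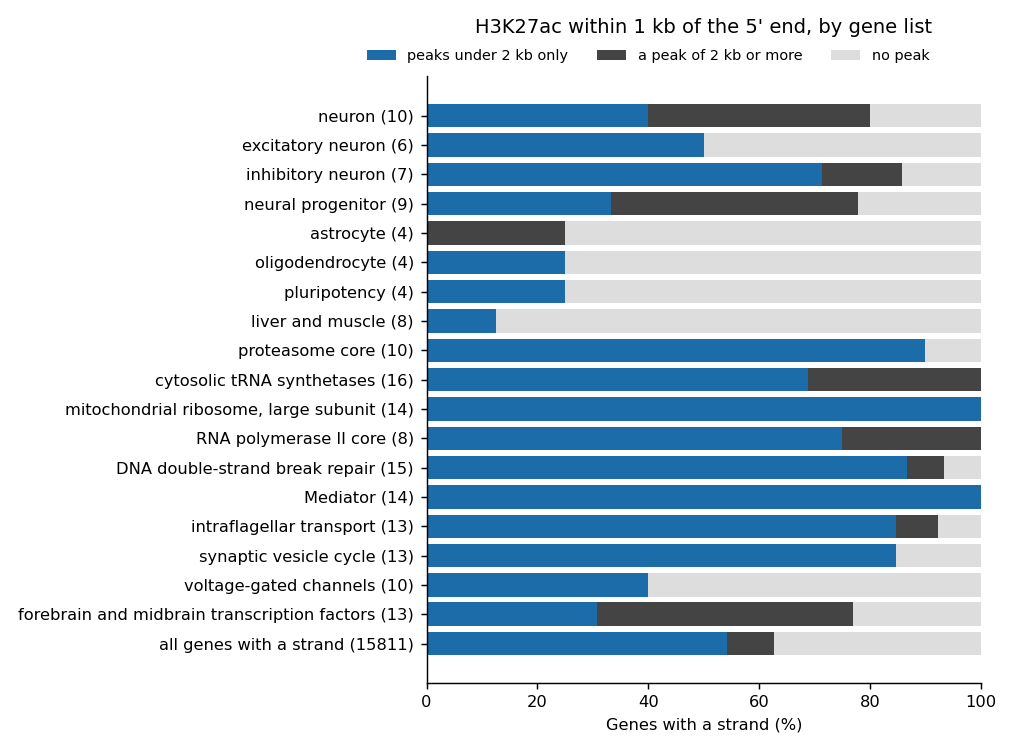
Share of the genes of each list (horizontal axis, percent, with the number of genes with a strand in brackets) that had only H3K27ac peaks under 2 kb within 1 kb of the 5′ end, a peak of 2 kb or more with or without a narrow one, or no peak. Mitochondrial ribosome and Mediator genes are filled by narrow peaks (14 of 14 each), progenitor markers and forebrain and midbrain factors have the largest shares of wide peaks (4 of 9 and 6 of 13), and liver and muscle genes are mostly without a peak (7 of 8).

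The genes of neuronal function were mixed. In the synaptic vesicle cycle 11 of 13 genes had a member and none had a wider peak. VAMP2, the vesicle SNARE, had a fold enrichment of 27, followed by PCLO, the presynaptic scaffold piccolo (25.5), and CPLX2, a complexin (17), and the median was 8.46. SV2B and STX1A had no peak. At 6 of the 13 the start was flanked, SYP, UNC13A and RAB3A among them. Voltage-gated channels had a member in 4 of 10 genes, led by the sodium channel SCN8A (fold enrichment 34.3), with KCND2 at 7.77 and CACNA1A at 4.32, and 6 of 10 had no peak.

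Among general neuron markers 5 of 10 had a member and 4 had a peak of 2 kb or more. DCX, the microtubule protein doublecortin of young neurons, led with a fold enrichment of 21.2, followed by STMN1 (15.6) and MAP2 (8.70). The wide peaks belonged to TUBB3, SYT1, GAP43 and MAP2, and RBFOX3 and ELAVL4 had no peak at the 5′ end used here. Neural progenitor markers had a member in 6 of 9 genes and a wide peak in 4. Their strongest members lay at VIM (fold enrichment 27.2), NOTCH1 (21.6) and HES1 (12.6), and VIM and NOTCH1 had a wide peak as well. NES had a wide peak of 10811 bp beside a member, and PAX6 and FABP7 had none at the 5′ end used here. HES1, HES5 and SOX3 had flanked starts, with gaps of 730, 389 and 495 bp that are wider than the upper quartile of 284 bp.

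Inhibitory markers had a member in 6 of 7 genes, led by DLX1 (fold enrichment 15.5), GAD2 (10.9) and DLX6 (9.04). GAD2 had a wide peak of 2569 bp as well, and the summit of its member stood at -1445 bp from the start. SLC32A1 (5.81), GAD1 (5.23) and DLX2 (4.03) were lower, and LHX6 had no peak. Excitatory markers had a member in 3 of 6 genes and at low levels, namely TBR1 (fold enrichment 5.05), the vesicular glutamate transporter SLC17A6 (4.47) and NEUROD1 (2.67). SLC17A7, NEUROD2 and NEUROD6 had no peak. Forebrain and midbrain transcription factors had a member in 7 of 13 genes, led by EN2 (fold enrichment 18.5), NKX2-1 (13.9) and MEIS2 (13.1), and a wide peak in 6. NKX2-1 was among these 6, with a wide peak of 3047 bp beside its member. RAX, LMX1A and PAX2 had no peak.

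Markers of other cell types were sparse. Of 4 astrocyte markers only the gap junction gene GJA1 had a member (fold enrichment 4.06), beside a wide peak of 2513 bp, and AQP4, ALDH1L1 and SLC1A3 had no peak. Of 4 oligodendrocyte markers only CNP had one (fold enrichment 8.74), and MBP, MOG and MAG had no peak. Of 4 pluripotency markers only DPPA4 had one (fold enrichment 3.42), and NANOG, ZFP42 and L1TD1 had no peak. Of 8 liver and muscle genes only CKM had one (fold enrichment 2.29).

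Promoter sequence, which the rule did not use, was then compared. A window from 250 bases before to 50 bases after the start was found in the RefSeq table for 13791 genes whose listed start matched the end of the gene interval. Promoters with a member had a median GC content of 65.3% and a median CpG ratio, observed over that expected from C and G, of 0.854. Promoters with no peak had 54.7% and 0.313, and promoters with a peak of 2 kb or more had 67.0% and 0.855. Promoters with both a member and a wider peak count in both groups. Over all promoters the medians were 62.7% and 0.767. Within the promoters with a member the CpG ratio was 0.796 in the lowest quartile by fold enrichment and 0.878 in the highest, with GC content of 65.7% and 64.7%.

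Short motifs were searched as exact letters on both strands of the window, with no motif contained in another. The GC box GGGCGG, bound by SP and KLF factors, was found in 71.8% of the 7967 promoters with a member (95% Wilson interval 70.8 to 72.7%) and in 34.7% of the 4904 with no peak (33.3 to 36.0%), beside 58.5% of all promoters. The ETS core CCGGAAG was found in 21.0% with a member (20.1 to 21.9%) and in 3.43% with no peak (2.95 to 3.97%), beside 14.6% of all. The window of promoters with a member was thus richer in these letters, as it was in GC content, and the part of base composition in the motif shares was not tested.

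The NRF1 core GCATGCG was found in 7.27% with a member and 2.18% with no peak, beside 5.33% of all. The cAMP response element TGACGTCA stood at 3.63% and 1.02%, beside 2.70% of all. The YY1 core AAGATGG stood at 8.25% and 4.26%, beside 6.69% of all. In the promoters with a member it was found in 3.96% of the lowest quartile by fold enrichment and 11.4% of the highest. The CCAAT box CCAAT of NF-Y was found in 39.3% with a member and 35.1% with no peak, beside 37.1% of all. The YY1 core was not alone in differing by strength among the promoters with a member. In the lowest and highest quartiles the ETS core was found in 12.8% and 22.8%, and the NRF1 core in 4.06% and 8.08%. The cAMP response element stood at 2.60% and 3.97%, the CCAAT box at 37.0% and 42.0% and the GC box at 70.5% and 70.8%.

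Other motifs were less frequent at members or had overlapping intervals. The TATA box TATAAA was found in 5.26% with a member (4.79 to 5.77%) and 18.3% with no peak (17.2 to 19.4%), beside 10.0% of all. The AP-1 site TGANTCA was found in 3.73% and 9.38%, beside 5.78% of all, and the E-box CAGCTG in 16.4% and 20.5%, beside 17.7% of all. For the RFX half-site GTTGCCA the shares were 4.05% and 3.96%, beside 4.0% of all, and their intervals overlapped. Among promoters with a member, the TATA box stood at 6.61% in the lowest quartile by fold enrichment and 5.07% in the highest. The AP-1 site stood at 5.41% and 3.46%, the E-box at 17.6% and 14.7% and the RFX half-site at 3.86% and 3.87%.

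Members at starts of different layout also differed in these letters. At divergent genes with a member the ETS core was found in 32% of 1222 promoters (95% Wilson interval 29.4 to 34.7%) and at the other genes with a member in 19.0% of 6745 (18.1 to 20%). The median distance between divergent starts, 173 bp, is shorter than the part of the window before the start. A window at a divergent gene can thus hold the partner's promoter too, and the same site can count for both genes. The interval treats paired genes as independent. The part of this layout in the difference was not tested. Flanked starts held a GC box in 80.6% of 1915 promoters (78.7 to 82.3%), and starts covered by a member held one in 70.0% of 4793 (68.7 to 71.3%). Median GC content was 67.7% at the flanked and 64.7% at the covered starts, and its part in this difference was not tested. Promoters with a peak of 2 kb or more were set against the 7722 with narrow peaks only. The latter had the ETS core more often (21.4% against 16.4%, intervals 20.5 to 22.3% and 14.4 to 18.6%). They also had the CCAAT box more often (39.1% against 32.8%), whereas for the GC box (71.8% and 70.7%) the intervals overlapped.

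**Figure D5:**
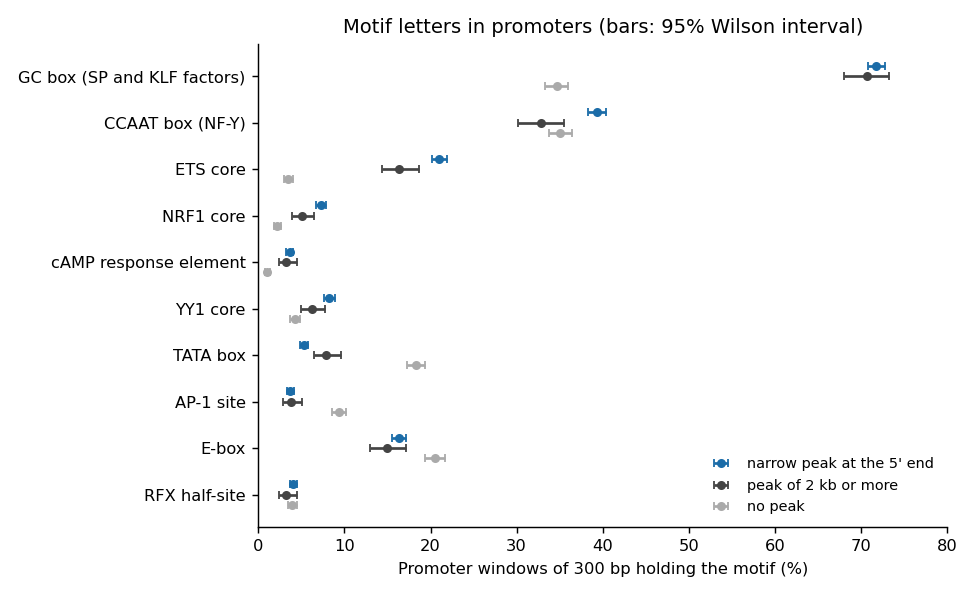
Share of promoter windows holding each motif (horizontal axis, percent, bars are 95% Wilson intervals), for genes with a narrow peak at the 5′ end, genes with a peak of 2 kb or more there and genes with no peak. Genes with both kinds of peak count in both groups. GC box and ETS core stand higher at genes with a narrow peak than at genes with no peak (71.8% against 34.7% and 21.0% against 3.43%), and the TATA box stands lower (5.26% against 18.3%).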

How the data were processed

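Peaks of H3K27ac and CTCF were taken from 1 list per antibody, each covering both libraries (2 per antibody). The submitters' processing notes name the genome hg38 and cutadapt 1.16. The aligner, the peak caller and its settings are not given in the sources used here. The authors' H3K27ac list holds a fold enrichment, judged from its layout and values and read as a ratio. The authors' CTCF list holds a signal value whose scale is not stated. Both deposited lists hold −log10 q values (for CTCF a rank-based measure may be meant) and a display score of at most 1000, which was not used. The lists hold 0 other columns of per-sample values. Depth is unknown, and PCR duplicates cannot be judged.

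Distances run from the nearest base of a peak to an end of the RefSeq GRCh38.p14 gene interval, and strand comes from the RefSeq promoter table of that build. Overlap means at least 1 bp. A gene has 1 start here, the 5′ end of its interval, so peaks at other starts count as elsewhere. Shares have 95% Wilson intervals. Each count could be described but not tested, because peaks and genes are not replicates. The self-made functions were tested on simulated data (Python 3.11.15, numpy 2.4.6, pandas 2.3.3).

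The members and the 18 lists (244 entries, 243 found in the gene table) were chosen with earlier results of these data known. Named peaks are the 8 strongest 5′ members, the 4 strongest 3′ members, the 3 weakest, those at the limits of the rule and those with the strongest CTCF peak. Named genes are the 3 strongest of each list, and genes without a peak where 3 or fewer. Other list genes were named after their values were seen, as were the 2 further divergent pairs. The division of summits by strength and strand, of CTCF by position and of motifs by layout was chosen after seeing the data. Alternatives varied distance, width, overlap and q.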

Additional observations from a re-analysis of the deposited data

How the results depend on the processing

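No paired analysis was possible because each list covers both libraries together, and leaving out each library was not run for the same reason. Of 27 alternatives, 6 stayed within the interval (or within 1.5 times, for the number of members), 21 moved the value and 0 reversed it. The ratio of fold enrichment has no interval, so each of its 5 alternatives counts as moved. The share at a 5′ end (91.4%) was 93.0% within 500 bp, 89.3% within 2 kb, 92.5% with q under 0.01, 95.6% in the upper 50% by fold enrichment and 92.1% by summit. The share overlapping CTCF (31.5%) was 17.4% for a CTCF summit inside the member, 16.2% with 50% of the CTCF peak covered, 19.5% without CTCF peaks of 800 bp, 14.9% in the upper 50% of CTCF signal and 32.3% with q under 0.01. The 5′ to 3′ ratio of fold enrichment (2.17) was 1.64 at 300 to 600 bp, 2.47 by means, 2.36 within 500 bp, 1.93 within 2 kb and, in an alternative added after seeing the data, 2.19 without 3′ members near another start or a non-coding gene end. The share of genes with a 5′ member (56.1%) was 54.4% within 500 bp, 59.4% within 2 kb and 55.2% with q under 0.01. The GC box share (71.8%) was 64.5% where the window lay wholly in a member. The share of flanked starts (23.3%) was 22.1% with q under 0.01 and 22.3% for summits 100 to 1000 bp from the start. The cause of the moves was otherwise not tested.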
